A study of Mus musculus with 15 samples.

Results

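The alpha-arrestins and the ChREBP group of transcription factors were followed in the kidneys of wild-type mice, by RNA sequencing of messenger RNA. The 8 genes are the alpha-arrestins Txnip, Arrdc1, Arrdc2, Arrdc3 and Arrdc4, and the factors Mlxipl, Mlxip and Mlx. They were found by gene symbol in a table of 23284 genes, and all 8 passed the filter that left 11781 genes for testing. Kidneys came in 3 groups of 5 libraries, treated with D-alanine (D-ala), L-alanine (L-ala) or vehicle, all of genotype WT and all labelled 2 h. D-alanine and L-alanine are mirror images of each other. The sources used here give no dose, route or vehicle make-up, and no strain, age or number of the animals, so it cannot be said that the doses of the isomers matched. The labels do not say that the libraries of a group came from separate animals, and every p-value therefore measures only the spread between these libraries, which may be technical. The 8 genes were chosen by their FPKM (fragments scaled to transcript length and library depth) in these same libraries. Their differences between groups are therefore given as a description, without p-values.

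Alpha-arrestins are adaptor proteins that share a fold with the arrestins of G protein-coupled receptors. Most carry short proline-rich motifs that recruit ubiquitin ligases of the NEDD4 family to membrane proteins, which are then taken into the cell and sorted. Txnip also binds thioredoxin and lowers glucose uptake. ChREBP, coded by Mlxipl, and MondoA, coded by Mlxip, respond to phosphorylated sugars and bind DNA as partners of Mlx, at paired E-box-like sites called carbohydrate response elements. Txnip and Arrdc4 are well-known target genes of these factors, and ChREBP drives genes of glycolysis, fructose use and fat synthesis in liver and fat. In the kidney, the proximal tubule takes up filtered sugar and makes glucose.

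Because Txnip and Arrdc4 are known as targets, and because Mlx and Mlxipl code for the factors, 4 promoters are shown, as RefSeq gives them for GRCm38.p6. Each runs 5′ to 3′ on the strand of its gene, from 250 bases before the annotated start to 50 bases after it, and positions before the start are negative. The Txnip promoter, at chr3:96557707-96558006 on the plus strand, has in capitals 2 half-sites CACGAG that lie 5 bases apart between positions -85 and -69.
Txnip: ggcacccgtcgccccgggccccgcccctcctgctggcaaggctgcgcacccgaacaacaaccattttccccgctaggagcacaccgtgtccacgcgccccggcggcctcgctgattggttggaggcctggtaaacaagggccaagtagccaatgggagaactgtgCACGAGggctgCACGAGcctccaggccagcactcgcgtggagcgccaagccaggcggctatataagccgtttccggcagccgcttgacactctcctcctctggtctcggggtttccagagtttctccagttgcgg
The Arrdc4 promoter, at chr7:68749189-68749488 on the minus strand, has in capitals an E-box, CACGTG, between positions -193 and -188.
Arrdc4: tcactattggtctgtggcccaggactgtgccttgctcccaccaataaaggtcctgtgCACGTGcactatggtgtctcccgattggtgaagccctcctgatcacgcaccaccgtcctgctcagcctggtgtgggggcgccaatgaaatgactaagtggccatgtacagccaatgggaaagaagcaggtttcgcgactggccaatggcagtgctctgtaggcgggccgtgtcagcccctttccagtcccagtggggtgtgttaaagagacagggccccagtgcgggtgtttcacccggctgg
The Mlx promoter, at chr11:101087040-101087339 on the plus strand, has in capitals an E-box between positions -40 and -35.
Mlx: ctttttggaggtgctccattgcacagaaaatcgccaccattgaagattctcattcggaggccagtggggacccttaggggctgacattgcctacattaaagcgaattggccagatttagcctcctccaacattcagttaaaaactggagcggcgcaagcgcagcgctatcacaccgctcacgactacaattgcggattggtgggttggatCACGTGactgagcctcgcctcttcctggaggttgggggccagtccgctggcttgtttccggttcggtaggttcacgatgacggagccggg
Mlxipl has 2 starts in the table, 17001 bases apart. The promoter of the upstream start, at chr5:135089640-135089939 on the plus strand, has in capitals an E-box between positions -98 and -93.
Mlxipl: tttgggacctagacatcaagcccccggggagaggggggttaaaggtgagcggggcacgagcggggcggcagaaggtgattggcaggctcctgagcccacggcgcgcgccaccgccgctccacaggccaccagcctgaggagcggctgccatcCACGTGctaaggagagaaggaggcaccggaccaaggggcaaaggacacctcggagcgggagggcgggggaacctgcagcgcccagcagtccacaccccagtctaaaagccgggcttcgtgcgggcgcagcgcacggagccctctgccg

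Both strands of every promoter of that length were searched for the same letters, and the sites of different motifs may overlap. CACGTG was found in 7.15% of 32851 promoters. Among the 8 genes it was found in Arrdc4, Mlx and the upstream Mlxipl promoter, and not in the windows of Txnip, Arrdc1, Arrdc2, Arrdc3, Mlxip or the downstream Mlxipl start. No promoter in the table held 2 copies of CACGTG 5 bases apart. The looser form, 2 copies of CANNTG 5 bases apart, was in 0.767% of promoters and in none of the windows of the 8 genes. The form seen in Txnip, 2 copies of CACGNG 5 bases apart, was searched for only after the letters of its promoter had been seen, and 16 promoters (0.0487%) held it. The forkhead motif GTAAACA, in 3.65% of promoters, was found once, in Txnip between positions -121 and -115. CCAAT, in 37.4% of promoters, was found 6 times in Arrdc4, 3 times in Arrdc2, 2 times each in Txnip, Mlx and Mlxip, and not in Arrdc1. It was also found at 1 position in the upstream Mlxipl promoter and in windows of Arrdc3, which has several starts in the table. Not every Arrdc3 window held it, nor did that of the downstream Mlxipl start. The cAMP response element TGACGTCA, in 1.79% of promoters, was in none of the windows. These are matches of letters in short windows, and no binding was measured.

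Libraries held an estimated 7.58 to 10.9 M reads counted in genes, with the lowest in vehicle replicate 1 and in L-ala replicates 4 and 5. All 5 proximal tubule markers were present in every library, with a summed level of 2425 to 2756 FPKM in D-ala, 2449 to 2665 FPKM in L-ala and 2001 to 2362 FPKM in vehicle. L-ala replicate 5 stood apart. The mean correlation of its deviations with those of its own group was -0.12, against 0.07 to 0.29 in the other libraries. Values without it are given for some results only. Counts of several lists below also changed without it, and not all of these are printed. For example, NEDD4-family calls for L-ala versus vehicle went from 1 higher and 0 lower to 1 higher and 3 lower. Macrophage markers, 6 of 6 in the table, were lowest in D-ala, with a summed level of 44.7 to 63.99 FPKM, against 55.6 to 75.7 FPKM in L-ala and 64.6 to 89 FPKM in vehicle (exact two-sided permutation p = 0.00794 for the mean log2 level of D-ala versus vehicle). The mean log2(FPKM + 1) of the 4 endothelial markers was 3.07 in D-ala, 2.91 in L-ala and 3.50 in vehicle, and that of the 2 thick ascending limb markers was 8.78 in D-ala, 8.63 in L-ala and 9.04 in vehicle. The adrenal cortex genes Cyp11b1 and Cyp11b2 were listed at 0 in every library. What part these shifts have in the values of the 8 genes was not tested. In bulk tissue, fewer cells of a type and less RNA per cell cannot be told apart.

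Txnip was the most abundant of the 8 messages, with 161.2 FPKM on average over the 15 libraries, and Mlxip the least abundant, with 2.59 FPKM. Between them stood Mlx with 42.3 FPKM, Arrdc3 with 35.5 FPKM, Mlxipl with 26.5 FPKM, Arrdc1 with 17.4 FPKM, Arrdc2 with 11.2 FPKM and Arrdc4 with 6.30 FPKM. Txnip lay above Mlx, and Arrdc4 above Mlxip, in every library of all 3 groups. The order of the middle ranks was less firm and depended on the treatment. Mlx and Arrdc3 overlapped in D-ala and in vehicle but not in L-ala, and Arrdc3 and Mlxipl overlapped in L-ala and in vehicle but not in D-ala. Arrdc2 overlapped with Arrdc4 in D-ala and in vehicle, whereas in L-ala it lay above Arrdc4 in every library and overlapped with Arrdc1.

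**Figure D1:**
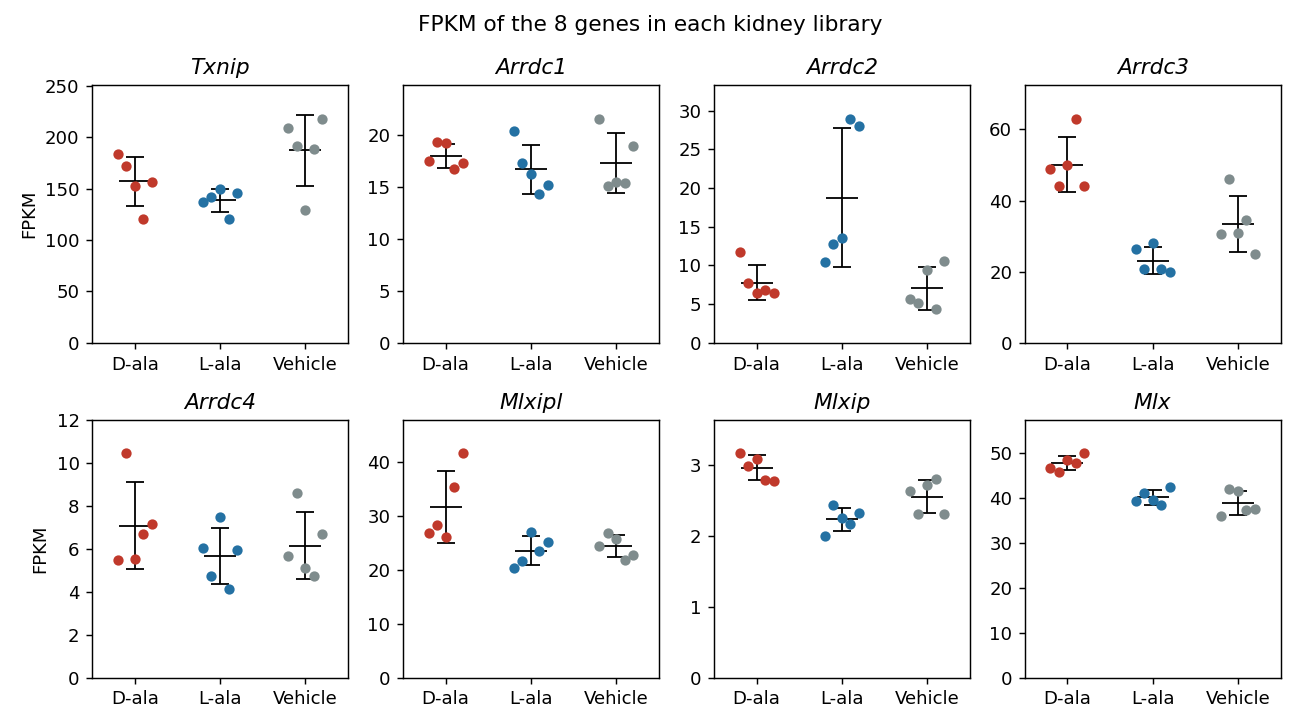
FPKM (vertical axes, each starting at 0) of the 8 genes in D-ala, L-ala and vehicle kidneys. Points are the 5 libraries of a group, and bars are the mean ± SD. Arrdc3 is highest in D-ala and lowest in L-ala, Arrdc2 is highest in L-ala, and all 5 D-ala values of Mlx lie above the L-ala and vehicle values.

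A gene was called changed when its adjusted p (Benjamini-Hochberg, over the 11781 genes, from limma on log2(FPKM + 1)) was under 0.05. For D-ala versus vehicle, 2 of the 8 genes were called, Arrdc3 and Mlx, both higher, where 11.5% of all genes were called, 6.53% higher and 4.92% lower. With L-ala versus vehicle, Arrdc2 was called higher and Arrdc3 lower, where 11% of all genes were called, 6.48% higher and 4.53% lower. Between the isomers, D-ala versus L-ala, Arrdc3, Mlx, Mlxip and Mlxipl were called higher and Arrdc2 lower, where 13.7% of all genes were called, 7.01% higher and 6.66% lower. Because the genes were chosen with these values known, nothing is read from these counts. Calls kept in the alternative fits below give no separate support either, because those fits use the same libraries. The median log2 fold change of the 8 genes was 0.16 for D-ala versus vehicle, -0.07 for L-ala versus vehicle and 0.25 for D-ala versus L-ala. Over all tested genes the medians were 0.00, 0.01 and -0.01 in the same order of comparisons. The comparisons with vehicle share their 5 vehicle libraries, and the comparison of the isomers shares its libraries with both.

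**Figure D2:**
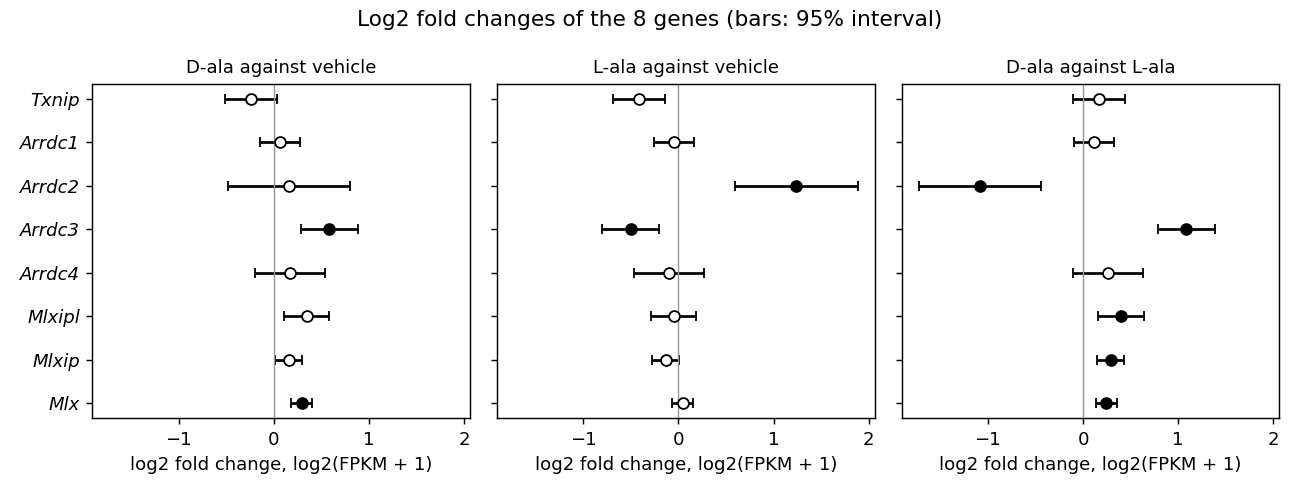
Log2 fold changes of the 8 genes on the scale of log2(FPKM + 1) (horizontal axis), with 95% intervals, for D-ala versus vehicle, L-ala versus vehicle and D-ala versus L-ala. Filled points are genes called over all tested genes. Arrdc3 stands at 0.58, -0.50 and 1.08, and Arrdc2 at 0.16, 1.24 and -1.08.

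Arrdc3 was called higher than vehicle after D-ala and lower than vehicle after L-ala. The protein is an endosomal adaptor known for its part in the traffic of beta-adrenergic receptors and as a suppressor of growth in breast cancer. Its gene lies on GRCm38 chromosome 13, from 80883384 to 80896042 on the plus strand. FPKM was 48.7, 44.2, 50.1, 63.0 and 44.1 in D-ala, 26.3, 20.6, 27.9, 20.6 and 19.8 in L-ala, and 30.6, 45.9, 30.97, 34.7 and 25.1 in vehicle. Every D-ala library lay above every L-ala library, 3 of 5 D-ala libraries lay above all vehicle libraries, and 3 of 5 L-ala libraries lay below them. Between D-ala and L-ala, 9.11% of all tested genes had no overlap. The one vehicle library inside the D-ala range was replicate 2. The means were 50.02 ± 7.74 FPKM in D-ala, 23.1 ± 3.76 FPKM in L-ala and 33.4 ± 7.77 FPKM in vehicle (SD, n = 5 each). The log2 fold change was 0.58 ± 0.14 (SE) for D-ala versus vehicle, with a 95% interval of 0.28 to 0.88. D-ala versus L-ala gave 1.08 ± 0.14, with an interval of 0.78 to 1.39, and for L-ala versus vehicle it was -0.50 ± 0.14, with an interval of -0.80 to -0.20. The calls of the D-ala comparisons were made in all 15 fits that left out 1 library and in all 13 other alternatives. The lower value in L-ala versus vehicle lost its call in 5 of the 15 fits without a library, those without vehicle replicates 1, 2 or 4 or L-ala replicates 2 or 4, and its log2 fold change ran from -0.60 to -0.38 over these 15. It also lost its call in 4 of the 13 other alternatives: with no filter, with only these groups in the fit, with the length trend removed, and without the 3 libraries of lowest depth.

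Arrdc2, a less studied alpha-arrestin, showed its high values in L-ala. It is coded on the minus strand of GRCm38 chromosome 8, from 70835129 to 70839720. FPKM was 11.7, 7.67, 6.40, 6.78 and 6.40 in D-ala, 10.4, 12.8, 13.6, 28.96 and 28.1 in L-ala, and 5.70, 5.18, 9.44, 4.41 and 10.6 in vehicle. L-ala replicates 4 and 5 had more than any other library, 4 of the 5 L-ala libraries lay above all vehicle libraries, and 4 of the 5 D-ala libraries lay below all L-ala libraries. The means were 7.78 ± 2.24 FPKM in D-ala, 18.8 ± 8.99 FPKM in L-ala and 7.07 ± 2.78 FPKM in vehicle (SD, n = 5 each). The log2 fold change was 1.24 ± 0.30 (SE) for L-ala versus vehicle, with a 95% interval of 0.60 to 1.88, and -1.08 ± 0.30 for D-ala versus L-ala, with an interval of -1.72 to -0.44. For D-ala versus vehicle it was 0.16 ± 0.30, with an interval of -0.48 to 0.80. L-ala replicates 4 and 5 are also 2 of the 3 libraries of lowest depth. Without those 3 libraries the log2 fold change was 0.72 for L-ala versus vehicle and -0.62 for D-ala versus L-ala, and neither was called. Without L-ala replicate 5 alone the values were 1.07 and -0.91, and both were called, whereas without L-ala replicate 4 alone they were 1.06 and -0.90 and neither was called. The call for L-ala versus vehicle was also lost without vehicle replicates 2 (1.16) or 4 (1.11), and that for D-ala versus L-ala without D-ala replicates 2, 3, 4 or 5 (-1.09 to -1.03). With only these groups in the fit, the call for L-ala versus vehicle was lost. With array weights that for D-ala versus L-ala was lost (-0.82), and L-ala replicates 4 and 5 had the lowest weights, 0.662 and 0.369. Markers of blood cells moved in the same direction. The mean log2(FPKM + 1) of the neutrophil list, of which 4 of 5 genes were in the table and Mpo was at 0 throughout, was 1.94 in L-ala and 0.81 in vehicle (exact two-sided permutation p = 0.00794, the smallest possible here, unadjusted, as are the other marker p-values). Summed red blood cell markers, 5 of 7 in the table, were 34.9 to 455.6 FPKM in D-ala, 262 to 744.3 FPKM in L-ala and 16.2 to 255 FPKM in vehicle. Their part in the Arrdc2 values was not tested.

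**Figure D3:**
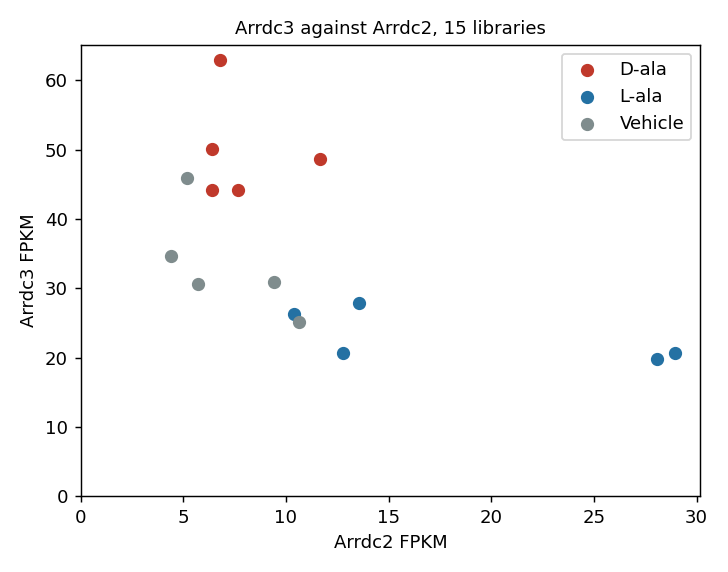
Arrdc3 against Arrdc2 in FPKM, both axes from 0, with 1 point per library coloured by group (D-ala, L-ala, vehicle). D-ala libraries sit at 44.1 FPKM or more of Arrdc3, L-ala libraries at 27.9 FPKM or less, and L-ala replicates 4 and 5 lie alone on the right with 28.96 and 28.1 FPKM of Arrdc2.

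Txnip was lower on average after both isomers, but not by enough to be called. Besides binding thioredoxin, its protein promotes the uptake of glucose carriers from the cell surface. Its gene lies on GRCm38 chromosome 3, from 96557957 to 96561883 on the plus strand. FPKM was 183.9, 172.4, 152.4, 120.8 and 156.9 in D-ala, 136.8, 141.5, 149.3, 120.8 and 146.0 in L-ala, and 208.8, 191.9, 129.6, 188.4 and 218.1 in vehicle. Vehicle replicate 3 lay below most treated libraries, the other 4 vehicle libraries lay above all treated ones, and the groups therefore overlapped. The means were 157.3 ± 23.98 FPKM in D-ala, 138.9 ± 11.2 FPKM in L-ala and 187.4 ± 34.5 FPKM in vehicle (SD, n = 5 each). For D-ala the log2 fold change was -0.24 ± 0.13 (SE) versus vehicle, with a 95% interval of -0.52 to 0.03. It was -0.41 ± 0.13 for L-ala versus vehicle, with an interval of -0.68 to -0.14, and 0.17 ± 0.13 for D-ala versus L-ala, with an interval of -0.11 to 0.44. Without vehicle replicate 3 it was -0.37 for D-ala versus vehicle and -0.54 for L-ala versus vehicle, and both were called. The L-ala value was also called without L-ala replicate 5, at -0.43, without D-ala replicate 4, at -0.41, and in 5 of the 13 other alternatives. On the opposite strand the annotation overlaps Txnip with Gm15441, an antisense RNA, and whether the deposited values used strand is not stated, so reads of the pair cannot be told apart. Gm15441 had 11.7 ± 6.88 FPKM in D-ala, 9.62 ± 7.04 FPKM in L-ala and 7.46 ± 5.85 FPKM in vehicle (SD, n = 5 each), and its adjusted p (limma) was 0.583, 0.753 and 0.788 for D-ala versus vehicle, L-ala versus vehicle and D-ala versus L-ala.

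Arrdc1 varied least between the groups. Its protein recruits Tsg101, a part of the endosomal sorting machinery, to the cell surface, where small vesicles bud off. The gene is on GRCm38 chromosome 2, from 24925352 to 24935252 on the minus strand. FPKM was 16.8 to 19.3 in D-ala, 14.3 to 20.4 in L-ala and 15.2 to 21.6 in vehicle, and all groups overlapped. Its log2 fold change was 0.07 ± 0.10 (SE) for D-ala versus vehicle, with a 95% interval of -0.15 to 0.28. For L-ala versus vehicle the interval was -0.26 to 0.16, and for D-ala versus L-ala it was -0.10 to 0.32.

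Arrdc4, a relative of Txnip that also lowers glucose uptake, was the member whose level depended on the unit. The gene spans GRCm38 chromosome 7 from 68736995 to 68749241 on the minus strand. FPKM was 5.48, 10.46, 5.54, 6.72 and 7.19 in D-ala, 6.03, 4.75, 7.48, 4.14 and 5.97 in L-ala, and 5.66, 8.59, 5.11, 4.73 and 6.72 in vehicle. The groups overlapped and the highest value of both the D-ala and the vehicle groups was replicate 2. The log2 fold change in FPKM was 0.17 ± 0.17 (SE) for D-ala versus vehicle, with a 95% interval of -0.20 to 0.53, and -0.10 ± 0.17 for L-ala versus vehicle. The table also gives a scaled count per gene. Scaled counts of Arrdc4 were 137, 201, 137, 145 and 158 in D-ala, 154, 131, 169, 139 and 132 in L-ala, and 150, 223, 147, 175 and 170 in vehicle. On this scale the D-ala mean of 155.6 ± 26.8 lay below the vehicle mean of 173 ± 30.5 (SD, n = 5 each), a log2 ratio of -0.15, so the direction turned round. The scaled count per FPKM, which should be constant for a gene of fixed length, ran from 19.2 to 37.02 over the 15 libraries for Arrdc4. For Mlx its largest value was 1.04 times its smallest, and for the other 6 genes the ratio was closer to 1 than that. Of 8086 tested genes with 100 or more scaled counts in every library, 57 (0.705%) varied by more than 1.2 times. No direction is therefore given for Arrdc4.

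**Figure D4:**
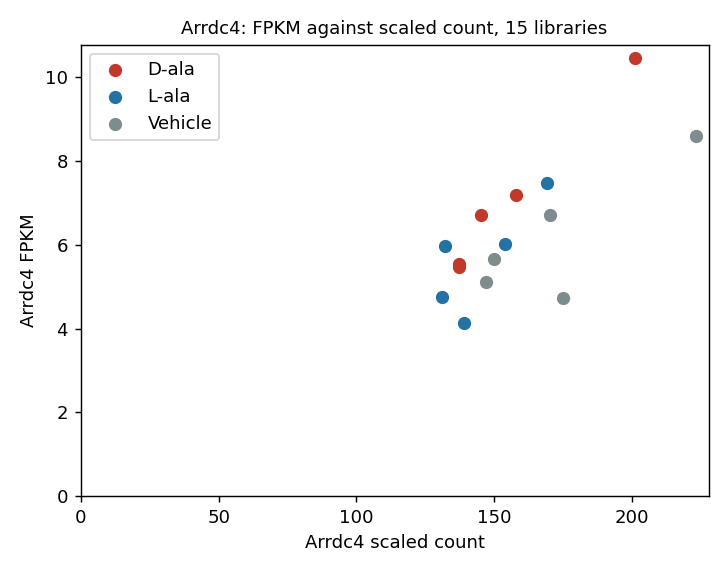
FPKM of Arrdc4 (vertical axis) against its scaled count (horizontal axis), both from 0, with 1 point per library coloured by group (D-ala, L-ala, vehicle). For a gene of constant counted length the points would lie on a line through 0, and here the scaled count per FPKM runs from 19.2 to 37.02.

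Among the ChREBP partners, Mlx separated D-ala from the other groups. Mlx is the shared dimer partner of ChREBP and MondoA, and of Mnt and some Mxd repressors. The plus strand of GRCm38 chromosome 11 carries it, from 101087277 to 101092207. FPKM was 46.7, 45.9, 48.4, 47.8 and 49.97 in D-ala, 39.3, 41.1, 39.5, 38.4 and 42.6 in L-ala, and 35.9, 41.9, 41.7, 37.3 and 37.6 in vehicle. Every D-ala library lay above every L-ala and every vehicle library, and the L-ala and vehicle libraries overlapped. Of all tested genes, 10.9% had no overlap for D-ala versus vehicle and 9.11% for D-ala versus L-ala. The means were 47.8 ± 1.57 FPKM in D-ala, 40.2 ± 1.66 FPKM in L-ala and 38.9 ± 2.73 FPKM in vehicle (SD, n = 5 each). The log2 fold change was 0.29 ± 0.05 (SE) for D-ala versus vehicle, with a 95% interval of 0.18 to 0.40, and 0.24 ± 0.05 for D-ala versus L-ala, with an interval of 0.13 to 0.35. Both calls were made in all 15 fits without a library and in all 13 other alternatives. The value for L-ala versus vehicle was 0.05 ± 0.05, with an interval of -0.06 to 0.16. Mlx overlaps Psmc3ip on the opposite strand, which had 3.39 ± 0.789 FPKM in D-ala, 4.67 ± 1.39 FPKM in L-ala and 4.34 ± 0.915 FPKM in vehicle (SD, n = 5 each).

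Mlxip, which codes for MondoA, had low levels that were ordered D-ala above vehicle above L-ala in their means. Its gene lies on GRCm38 chromosome 5, from 123394798 to 123457932 on the plus strand. On the same strand the annotation overlaps it with Gm42907, Gm42908 and Gm43813, whose reads cannot be separated by strand. FPKM was 3.17, 2.98, 3.09, 2.79 and 2.78 in D-ala, 2.01, 2.44, 2.26, 2.17 and 2.32 in L-ala, and 2.64, 2.31, 2.72, 2.80 and 2.32 in vehicle. Every D-ala library lay above every L-ala library, as without overlap in 9.11% of all tested genes, and vehicle overlapped with both. The log2 fold change for D-ala versus L-ala was 0.29 ± 0.07 (SE), with a 95% interval of 0.15 to 0.43. It was called in all 15 fits without a library and in 12 of the 13 other alternatives, the exception being the removal of a trend with gene length, where the value was 0.20. Against vehicle the log2 fold changes were 0.16 ± 0.07 for D-ala and -0.13 ± 0.07 for L-ala, and neither was called.

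Mlxipl, which codes for ChREBP, had its high values in a pair of D-ala libraries. Its gene lies on GRCm38 chromosome 5, from 135089890 to 135138382 on the plus strand, and the values per gene do not separate its starts. The annotation also overlaps Mlxipl, Mlxip and Arrdc3 with non-coding RNAs on the opposite strand, whose reads cannot be told apart either. FPKM was 26.8, 28.2, 26.02, 35.4 and 41.5 in D-ala, 20.3, 21.6, 27.1, 23.4 and 25.1 in L-ala, and 24.5, 26.8, 25.8, 21.8 and 22.8 in vehicle. D-ala replicates 4 and 5 were far above the other libraries. D-ala replicate 2 also lay above every L-ala and vehicle library, and D-ala replicates 1 and 3 lay within the ranges of both. The means were 31.6 ± 6.69 FPKM in D-ala, 23.5 ± 2.68 FPKM in L-ala and 24.3 ± 2.07 FPKM in vehicle (SD, n = 5 each). For D-ala versus L-ala the log2 fold change was 0.40 ± 0.11 (SE), with a 95% interval of 0.16 to 0.64, and 0.34 ± 0.11 for D-ala versus vehicle, with an interval of 0.10 to 0.59. The call for D-ala versus L-ala was lost without D-ala replicate 5 (0.29), without D-ala replicate 4 (0.35) and in 3 further fits without 1 library, those of L-ala replicates 1, 2 and 4. It was also lost in 4 of the 13 other alternatives, the same ones in which Arrdc3 lost its call for L-ala versus vehicle. The value for D-ala versus vehicle was not called, except without D-ala replicate 3 (0.41). ChREBP is also abundant in fat cells, and summed adipocyte markers, 6 of 6 in the table, were 70.5 to 490.2 FPKM in D-ala, 141.3 to 238.8 FPKM in L-ala and 98.7 to 420.1 FPKM in vehicle. The part of these markers in the Mlxipl values was not tested.

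Across the 15 libraries the 8 genes did not move as one group. Correlations of log2(FPKM + 1) are given as a description, and their points share libraries and treatments. The highest were between Mlxipl and Mlx (Pearson r = 0.75, Spearman rho = 0.73, n = 15) and between Arrdc3 and Mlxip (r = 0.71, rho = 0.70). Arrdc3 and Mlx had r = 0.68 and rho = 0.60. The most negative pair was Arrdc2 and Arrdc3 (r = -0.70, rho = -0.65). Txnip and Arrdc4, known targets of the same factors, had r = 0.30 and rho = 0.30, and Txnip and Mlx had r = -0.28 and rho = -0.25.

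The genes whose levels ran most like each member over the 15 libraries were also listed, by Pearson r and as a description. For Arrdc3 they included Brpf1 (r = 0.93) and Mnt (r = 0.91). For Arrdc2 they were Plekhf1 (r = 0.92), Mtch2 (r = 0.91) and Trim63 (r = 0.91), of which Trim63 codes for a muscle ubiquitin ligase and had 10.2 ± 3.50 FPKM in D-ala, 18.9 ± 4.29 FPKM in L-ala and 9.31 ± 3.58 FPKM in vehicle (SD, n = 5 each). For Mlx they included the histone demethylase gene Kdm6b (r = 0.95) and Gjb2 (r = 0.93). For Mlxip they were Bach1, Exph5 and Uhrf1bp1, each with r = 0.89. For Mlxipl they were Ankrd24 (r = 0.92), Sfrs18 (r = 0.92) and the nuclear RNA Malat1 (r = 0.90), which had 102.5 ± 28.6 FPKM in D-ala, 60.4 ± 18.2 FPKM in L-ala and 66.4 ± 13.5 FPKM in vehicle. For Txnip they were Ercc2 (r = 0.84), Tnpo2 (r = 0.82) and Vps37d (r = 0.81), for Arrdc1 Crtc1 (r = 0.89), Smpd4 (r = 0.86) and Paqr5 (r = 0.85), and for Arrdc4 Lenep (r = 0.85), Mcmbp (r = 0.81) and Pacrgl (r = 0.81).

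Target genes of ChREBP and MondoA other than Txnip and Arrdc4 rose more often after D-ala than they fell. This list and those below were chosen with earlier results of these data known, so their counts and p-values give no independent support. Txnip and Arrdc4, themselves members, are not in this list. Txnip was lower on average for D-ala versus vehicle (-0.24) and not called, and Arrdc4 was given no direction. Of 26 listed genes 22 were tested, and 11 rose and 0 fell for D-ala versus vehicle, where 6.53% of all genes rose and 4.92% fell. For D-ala versus L-ala 9 rose and 1 fell, where 7.01% of all genes rose and 6.66% fell. For L-ala versus vehicle 3 rose and 0 fell, where 6.48% of all genes rose and 4.53% fell. At an unadjusted p under 0.05, limma gave 14 higher and 0 lower for D-ala versus vehicle and 5 higher and 0 lower for L-ala versus vehicle. Of all 11781 genes, 3126 and 3590 passed that threshold in these comparisons, in either direction. Limma's voom on the scaled counts, with adjustment, gave 9 and 0, and 1 and 0. Over all genes voom called 524 higher and 1216 lower for D-ala versus vehicle, and 283 and 1843 for L-ala versus vehicle. The median log2 fold change of the list was 0.28, 0.28 and 0.04 for D-ala versus vehicle, D-ala versus L-ala and L-ala versus vehicle. The count for D-ala versus vehicle ran from 7 to 11 when 1 library was left out, with 7 without D-ala replicate 1, and was 11 without L-ala replicate 5. For D-ala versus L-ala it was 5 without D-ala replicates 1 or 2 or L-ala replicate 4 and 4 without the 3 libraries of lowest depth. For L-ala versus vehicle the count was 1 to 3 without 1 library and 0 with quantile normalization. Proximal tubule markers, which share the cell type in which many of these enzymes are made, had a mean log2(FPKM + 1) of 7.93 in D-ala, 7.88 in L-ala and 7.74 in vehicle (exact two-sided permutation p = 0.00794 for D-ala versus vehicle), and their part in the list's values was not tested.

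The targets that rose after D-ala included regulators and enzymes of sugar use. Klf10, a transcriptional repressor, had 12.5 ± 2.16 FPKM in D-ala and 5.18 ± 1.67 FPKM in vehicle (SD, n = 5 each), a log2 fold change of 1.16 ± 0.18 (SE; limma adjusted p = 0.00102). Gm6484, an older symbol of Angptl8, which codes for a secreted inhibitor of lipoprotein lipase, had 4.46 ± 0.827 FPKM in D-ala and 1.99 ± 0.464 FPKM in vehicle, a log2 fold change of 0.87 ± 0.15 (adjusted p = 0.00187). Both genes had no overlap between the libraries of the groups, as had 10.9% of all tested genes. Acly, which makes the acetyl-CoA used for fat synthesis, had 58.0 ± 8.92 FPKM in D-ala and 41.3 ± 5.62 FPKM in vehicle, with overlap, a log2 fold change of 0.48 ± 0.12 (adjusted p = 0.0142). Among the others were Bhlhe40 (1.59), a clock repressor, G6pc (0.77), which releases free glucose, Pklr (0.41), which codes for pyruvate kinase, the fructose carrier gene Slc2a5 (0.40), Gpd1 (0.30), Dak (0.27) and Tkt (0.24), each as a log2 fold change. Of the further genes of fat synthesis in the list, Fasn (0.31), Acacb (0.26), Acaca (0.09), Elovl6 (-0.00) and Scd1 (-0.14) were not called.

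After L-ala, the targets that rose were Me1, Khk and Tkt. Me1, a source of NADPH, had 162.8 ± 8.74 FPKM in L-ala and 128 ± 6.14 FPKM in vehicle (SD, n = 5 each), without overlap, a log2 fold change of 0.34 ± 0.05 (SE; limma adjusted p = 0.00298). No overlap was seen in 7.24% of all tested genes for L-ala versus vehicle. Me1 was the target that fell for D-ala versus L-ala (-0.23, limma adjusted p = 0.0145, and 0.0065 to 0.133 over the alternatives). For L-ala versus vehicle its adjusted p ran from 0.00188 to 0.0582 over the alternatives. Khk, which starts fructose breakdown, had a log2 fold change of 0.28 ± 0.08 (adjusted p = 0.0427, and 0.00383 to 0.536 over the alternatives). Tkt had 0.21 ± 0.06 (adjusted p = 0.0338, and 0.0224 to 0.561 over the alternatives).

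**Figure D5:**
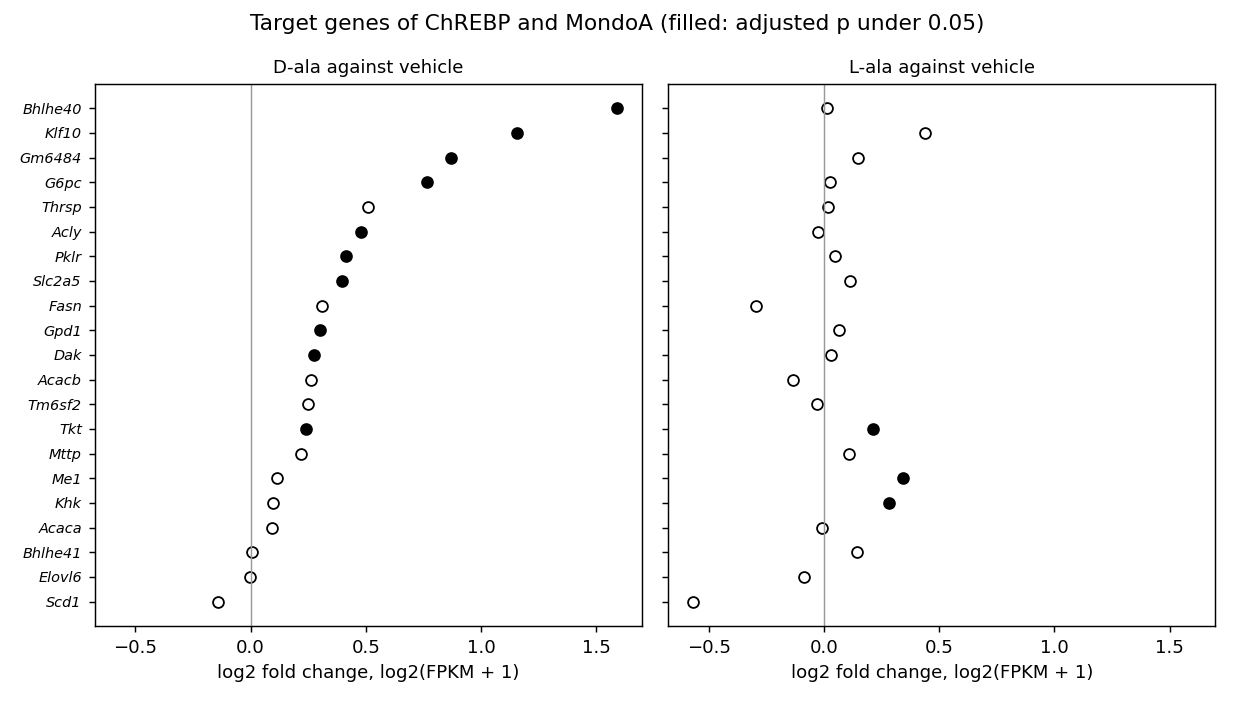
Log2 fold changes on the scale of log2(FPKM + 1) (horizontal axes) of tested target genes of ChREBP and MondoA, for D-ala versus vehicle on the left and L-ala versus vehicle on the right, ordered by the value for D-ala. Filled points are called genes, and Txnip and Arrdc4 are not shown. Bhlhe40 (1.59) and Klf10 (1.16) stand highest for D-ala, and Me1 (0.34), Khk (0.28) and Tkt are the filled points for L-ala.

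In the thioredoxin system, to which Txnip belongs as an inhibitor, some genes rose after L-ala and more were not called. Of 17 listed genes 16 were tested, and for L-ala versus vehicle 5 rose, 0 fell and 11 were not called, where 6.48% of all genes were called higher and 4.53% lower. For D-ala versus L-ala 0 rose and 2 fell, where 7.01% of all genes were called higher and 6.66% lower, and for D-ala versus vehicle none was called, where 11.5% of all genes were. At an unadjusted p under 0.05, limma gave 5 higher and 0 lower for D-ala versus vehicle, 8 higher and 0 lower for L-ala versus vehicle, and 1 higher and 5 lower for D-ala versus L-ala. In the same order, 3126, 3590 and 3632 of all 11781 genes passed that threshold, in either direction. With voom on the scaled counts the calls were 0 for D-ala versus vehicle, 2 higher for L-ala versus vehicle and 2 lower for D-ala versus L-ala. Among all genes voom called 524 higher and 1216 lower, 283 and 1843, and 1103 and 464 in these comparisons. Prdx1, a peroxiredoxin that removes hydrogen peroxide, had 610.5 ± 24.4 FPKM in D-ala, 785.5 ± 107.5 FPKM in L-ala and 617.8 ± 32.3 FPKM in vehicle (SD, n = 5 each). Its log2 fold change was 0.34 ± 0.08 (SE) for L-ala versus vehicle (limma adjusted p = 0.0164) and -0.35 ± 0.08 for D-ala versus L-ala (adjusted p = 0.00929). Prdx2, a peroxiredoxin that is also abundant in red blood cells, had 309.1 ± 11.8 FPKM in D-ala, 371.1 ± 32.7 FPKM in L-ala and 294.4 ± 15.98 FPKM in vehicle. The red blood cell markers moved the same way, with a mean log2(FPKM + 1) of 4.10 in L-ala and 2.48 in vehicle (exact two-sided permutation p = 0.0238), and their part was not tested. The remaining genes that rose were Txnrd2 (0.27), Glrx (0.24) and Prdx6 (0.18), as log2 fold changes. Txn1, thioredoxin itself, had 427.5 ± 46.6 FPKM in L-ala and 370.6 ± 29.95 FPKM in vehicle and was not called (adjusted p = 0.0847). The count for L-ala versus vehicle depended on single libraries, with 1 gene without vehicle replicate 4, 2 without L-ala replicate 4, 3 without vehicle replicate 2 and 8 without L-ala replicate 5, and it was 0 with quantile normalization.

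The Myc, Max and Mxd proteins share dimer partners with Mlx, and Mnt and Myc both rose after D-ala. Of 10 listed genes 7 were tested, with 2 higher and 1 lower for D-ala versus vehicle and 2 higher and 1 lower for D-ala versus L-ala, where 11.5% and 13.7% of all genes were called. For L-ala versus vehicle none was called, where 11% of all genes were, while limma gave 0 higher and 3 lower at an unadjusted p under 0.05, and voom called 0 higher and 4 lower. In that comparison 3590 of all 11781 genes were under that unadjusted p, and voom called 283 higher and 1843 lower over all genes. Mnt, which codes for a repressor that pairs with Max or Mlx, had 10.46 ± 1.63 FPKM in D-ala, 4.33 ± 0.449 FPKM in L-ala and 5.58 ± 0.908 FPKM in vehicle (SD, n = 5 each). Its log2 fold change was 0.80 ± 0.11 (SE) for D-ala versus vehicle (limma adjusted p = 0.000207) and 1.10 ± 0.11 for D-ala versus L-ala (adjusted p = 1.67e-05), with no overlap in either. Such a lack of overlap was seen in 10.9% and 9.11% of all tested genes in these comparisons. Myc, the growth factor-induced activator, had 8.06 ± 2.67 FPKM in D-ala, 2.14 ± 1.36 FPKM in L-ala and 2.19 ± 0.820 FPKM in vehicle, a log2 fold change of 1.49 ± 0.27 versus vehicle (adjusted p = 0.00352). Mxi1, a Max-binding repressor, fell for D-ala versus vehicle (-0.20, adjusted p = 0.0274, and 0.0041 to 0.0701 over the alternatives). Max fell for D-ala versus L-ala (-0.22, adjusted p = 0.0375, and 0.00306 to 0.103 over the alternatives).

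Among the ubiquitin ligases that alpha-arrestins recruit, Nedd4l rose in both D-ala comparisons. Of 11 NEDD4-family ligases and adaptors 9 were tested, with 1 higher and 1 lower for D-ala versus vehicle, 1 higher and 0 lower for L-ala versus vehicle, and 2 higher and 0 lower for D-ala versus L-ala, where 11.5%, 11% and 13.7% of all genes were called in these comparisons. In the same order, limma gave 2 and 1, 1 and 3, and 2 and 1 at an unadjusted p under 0.05, and voom called 1 and 1, 0 and 3, and 2 and 0. Of all 11781 genes, 3126, 3590 and 3632 were under that unadjusted p. Voom called 524 higher and 1216 lower, 283 and 1843, and 1103 and 464 of all genes. Nedd4l, a ligase known for its control of the epithelial sodium channel, had 17.3 ± 1.48 FPKM in D-ala, 12.9 ± 0.494 FPKM in L-ala and 13.9 ± 1.04 FPKM in vehicle (SD, n = 5 each). Its log2 fold change was 0.29 ± 0.06 (SE) for D-ala versus vehicle (limma adjusted p = 0.00821) and 0.39 ± 0.06 for D-ala versus L-ala (adjusted p = 0.00182). Smurf2 fell for D-ala versus vehicle (-0.30, adjusted p = 0.0172, and 0.00581 to 0.0527 over the alternatives). Wwp2 rose for L-ala versus vehicle (0.20, adjusted p = 0.0228, and 0.00687 to 0.163), and Smurf1 rose for D-ala versus L-ala (0.28, adjusted p = 0.0423, and 0.0187 to 0.107). The abundant adaptor gene Ndfip1 had 274.3 ± 14.1 FPKM in D-ala, 261.4 ± 20.2 FPKM in L-ala and 272.1 ± 14.6 FPKM in vehicle and was not called.

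Of the receptors and endosomal partners that alpha-arrestins serve, 9 of 10 were tested, with 1 higher and 1 lower for D-ala versus vehicle, 1 and 0 for L-ala versus vehicle, and 2 and 0 for D-ala versus L-ala, where 11.5%, 11% and 13.7% of all genes were called. In the same order, limma gave 3 and 1, 2 and 2, and 2 and 1 at an unadjusted p under 0.05, and voom called 0 and 2, 1 and 4, and 2 and 0. The unadjusted threshold was passed by 3126, 3590 and 3632 of all 11781 genes. Voom called 524 higher and 1216 lower, 283 and 1843, and 1103 and 464 over all genes. For D-ala versus vehicle Hgs, an endosomal sorting subunit, rose (0.20, limma adjusted p = 0.0201, and 0.00961 to 0.101 over the alternatives) and its partner Stam fell (-0.17, adjusted p = 0.0431, and 0.0135 to 0.353 over the alternatives). With L-ala, Tsg101, the partner of Arrdc1, rose versus vehicle, with 28.2 ± 1.42 FPKM in L-ala and 23.3 ± 1.42 FPKM in vehicle (SD, n = 5 each), a log2 fold change of 0.27 (adjusted p = 0.0077). Between the isomers, Hgs (0.19, adjusted p = 0.0277, and 0.0127 to 0.0697) and the beta-adrenergic receptor gene Adrb1 rose, and Adrb1 had 1.13 ± 0.112 FPKM in D-ala and 0.601 ± 0.181 FPKM in L-ala (0.42, adjusted p = 0.016). The beta-arrestin genes Arrb1 and Arrb2 were not called in any comparison. For them limma gave 1 higher gene at an unadjusted p under 0.05, for D-ala versus L-ala, and voom called 1 higher there and 1 lower for L-ala versus vehicle. The other 3 arrestin genes listed, Arrdc5 among them, did not pass the filter on low values.

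Sugar entry and its energy sensor were the last groups followed. Of 11 genes of glucose entry and the first steps of glycolysis 7 were tested. For D-ala versus vehicle 1 was higher and 0 lower, and for L-ala versus vehicle 2 were higher and 0 lower. In these comparisons 11.5% and 11% of all genes were called. At an unadjusted p under 0.05, limma gave 3 and 0 for D-ala and 3 and 1 for L-ala, and voom called 0 and 0 for D-ala and 1 and 1 for L-ala. Gpi1, a glycolytic isomerase, rose in both comparisons with vehicle, by 0.19 for D-ala (limma adjusted p = 0.0214, and 0.0105 to 0.0947 over the alternatives) and by 0.18 for L-ala (adjusted p = 0.0336, and 0.0163 to 0.852) on the log2 scale. Slc5a2, the main sodium-glucose carrier gene of the proximal tubule and 1 of the 5 proximal tubule markers, rose for L-ala with 320.9 ± 47.8 FPKM, against 245.1 ± 23.9 FPKM in vehicle (SD, n = 5 each; 0.38, adjusted p = 0.0286, and 0.00508 to 0.13 over the alternatives). None was called for D-ala versus L-ala, and neither limma at an unadjusted p under 0.05 nor voom gave any (0 of 7). A list of 10 genes held subunits of AMP-activated kinase, which acts on Txnip protein, and genes of its activating kinase. Of these 10, 2 were higher and 1 lower for D-ala versus vehicle, and 1 higher and 1 lower for L-ala versus vehicle. For D-ala versus L-ala 1 was higher, and 11.5%, 11% and 13.7% of all genes were called in these comparisons. The higher genes for D-ala versus vehicle were Prkag3 and Strada, which goes with the activating kinase. Strada had 0.24 (limma adjusted p = 0.0479, and 0.0198 to 0.183 over the alternatives). The lower gene was the subunit gene Prkaa1 (-0.18, adjusted p = 0.0419, and 0.00742 to 0.276). At an unadjusted p under 0.05, limma gave 3 higher and 3 lower for D-ala versus vehicle, 1 and 3 for L-ala versus vehicle, and 3 and 1 for D-ala versus L-ala. Voom called 1 higher and 3 lower, 1 and 2, and 2 and 0 in the same order. As background to both lists, 3126, 3590 and 3632 of all 11781 genes were at an unadjusted p under 0.05 in these comparisons. Voom called 524 higher and 1216 lower, 283 and 1843, and 1103 and 464 over all genes. Prkag3, a regulatory subunit, had 4.62 ± 0.625 FPKM in D-ala, 3.56 ± 0.923 FPKM in L-ala and 2.25 ± 0.564 FPKM in vehicle (SD, n = 5 each), a log2 fold change of 0.80 for D-ala (adjusted p = 0.0017) and 0.48 for L-ala (adjusted p = 0.0379, and 0.0291 to 0.215 over the alternatives) versus vehicle. Prkab1, another subunit, was lower for L-ala versus vehicle (-0.24, adjusted p = 0.036, and 0.0076 to 0.158) and higher for D-ala versus L-ala (0.31, adjusted p = 0.00992).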

How the data were processed

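Libraries were prepared from TRIzol-extracted RNA with a TruSeq stranded mRNA kit, per the labels' protocols. The submitters' processing notes name mm10 and the tools SAMtools 0.1.19, Bowtie2 2.2.3 and TopHat2 2.0.13, without their roles. Neither the counting program nor its annotation or strand setting is given in the sources used here. The deposited table holds FPKM for 15 libraries, per the file headers, and these were tested. A deposited log2 signal, within 0.0012 of the log2 FPKM centred per gene over the 10664 genes that reached 1 FPKM throughout, was not used. A deposited whole-number column, headed as a count, was read as a score, since each library's counts had been rescaled by 1 factor and rounded. That factor was estimated from the pattern of low whole numbers in each library. Dividing a library's total over genes by it gave the depth used here, an estimate of reads counted in genes.

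Genes at 1 FPKM or more in at least 5 libraries were fitted with limma 3.58.1 (R 4.3.3) on log2(FPKM + 1), with a mean-variance trend and robust moderation, 1 mean per group. This scale understates changes of low genes. Marker lists were compared by exact two-sided permutation tests (scipy 1.17.1). The fit was tested on simulated data. Members and lists were chosen with earlier results of these data known. Named were all 8 members, up to 3 called genes per list and comparison by smallest p, up to 2 uncalled genes per list by level, and the 3 genes most correlated with each member. Further members of a list were chosen after their values were seen. A few genes that these rules name are not reported here. Coordinates follow GENCODE M21 (GRCm38). Promoters are from RefSeq, and protein sequences were not used here. FPKM carry no counting interval, so precision is the spread between libraries.

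Alternatives were other pseudocounts, filters, scalings, weights and trends, a voom fit of the scaled counts, and fits without 1 library or without the 3 of lowest depth.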

Additional observations from a re-analysis of the deposited data

Results flagged for a closer look

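Within D-ala, Arrdc2 in replicate 1 stood apart from the other 4 libraries with 11.67 FPKM. The gap to the next library was 0.758 of the group's range, above the critical value of 0.71 for 5 libraries. It was the single library to do so among 24 groups of 5 examined (8 genes in 3 groups), and chance flags about 1 in 20 such groups. Without D-ala replicate 1 the log2 fold change of Arrdc2 was 0.02 for D-ala versus vehicle and -1.22 for D-ala versus L-ala. The cause was not tested.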

How the results depend on the processing

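The number of genes called for D-ala versus vehicle, 1349, ran from 812 to 1592 when 1 library was left out and stayed within 1.5 times the main count in the other alternatives. For L-ala versus vehicle, 1297 genes became 575 with quantile normalization, 603 with only these groups in the fit, 746 with the length trend removed, 2126 with voom and 2308 with array weights, and 321 to 2580 without 1 library, the highest without L-ala replicate 5 and the lowest without vehicle replicate 4. For D-ala versus L-ala, 1611 genes became 975 with only these groups in the fit and 2700 with array weights, and 770 to 2761 without 1 library, the lowest without L-ala replicate 4 and the highest without L-ala replicate 5. The causes were not tested. Scaling moved the split of directions: 57.01% of the calls for D-ala versus vehicle were higher, against 46.95% with quantile normalization and 30.11% with voom. For L-ala versus vehicle it was 58.83%, against 40.7% and 13.31%, and for D-ala versus L-ala 51.27%, against 70.39% with voom. With voom the median of all genes stood at -0.10 for L-ala versus vehicle.

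Of the log2 fold changes of the 8 members over all alternatives, 630 kept their side of the threshold, 31 lost a call and 11 gained one. Of those of the other named genes, 3483 kept it, 166 lost a call and 44 gained one. No called value turned its direction, but 9 uncalled values of Arrdc1, Arrdc4 and Mlx did, among them Arrdc4 for D-ala versus vehicle with voom (-0.21), as did 100 of the other named genes' values. The calls of Arrdc3 and Mlx in both D-ala comparisons were kept in every alternative run. These runs use the libraries by which the genes were chosen, so they show dependence on processing and give no separate support. No paired analysis was possible because the labels give no replicate numbers, and those used here follow the order of the samples.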
